A study of Mus musculus with 30 samples.

Results

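Transcripts of the retinal pigment epithelium and of pigment cells were followed through RNA-seq data of whole mouse retinas. The genes are a fixed list of 9 names: *Rpe65*, *Ttr* and *Rgr* for the epithelium, *Tyrp1*, *Dct*, *Tyr* and *Mlana* for pigment shared by the epithelium and the melanocytes of the choroid, and *Lrat* and *Slc45a2*. Of these, 7 had a row among the 12573 genes of the table. *Mlana* and *Slc45a2* had none and were not analysed here, which left 3 genes of the epithelium, 3 of pigment and *Lrat*. The list was matched by gene symbol. It was drawn up with earlier results of these data known, though its rule uses no measured value.

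The 30 libraries came from 10 groups of 3. Each was made from retinas pooled from 1 male and 1 female mouse on the C57BL6/J background. CRX is a homeodomain transcription factor of photoreceptors, and the mice carried knock-in alleles of *Crx*. *R90W* is a substitution within the homeodomain, *E168d2* a frame-shift that truncates the protein, and *E168d2neo* the same frame-shift with a neo cassette left in the locus. WT, *R90W/+*, *E168d2neo/+* and *E168d2/+* were sequenced at P10 and P21, and the homozygotes *R90W/W* and *E168d2/d2* at P10 only. WT mice of P21 were littermates of mutants. The alleles are inherited through the germline, so every cell of the eye carries them.

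The pigment epithelium is a single layer of cells behind the photoreceptors. It takes up their shed outer segments and returns the visual chromophore through the retinoid cycle. The layer lies against the neural retina but is normally left behind when the retina is lifted out, and the pigmented choroid lies behind it. Transcripts of both can therefore reach a preparation of whole retina together or apart. LRAT esterifies retinol, RPE65 turns the ester into 11-cis retinol, and RGR is an opsin-like photoisomerase of the epithelium that is also made by Müller glia. Transthyretin, from *Ttr*, carries retinol-binding protein. Tyrosinase, from *Tyr*, opens the melanin pathway, and the enzymes made from *Dct* and *Tyrp1* act on later intermediates.

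In the mm9 annotation, *Rpe65* spans chr3:159262197-159287763 on the plus strand and *Lrat* chr3:82696501-82707895 on the minus strand. *Rgr* lies at chr14:37850676-37862150 and *Dct* at chr14:118412014-118451468, both on the minus strand. *Tyrp1* lies at chr4:80480027-80497623 on the plus strand and *Tyr* at chr7:94574910-94641943 on the minus strand. The values below count reads over whole gene models.

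The 250 bases before the start of 5 of these genes are shown, 5′ to 3′ on the strand of the gene. They were taken from RefSeq sequences of GRCm38.p6, a newer build than that of the gene positions. Windows of 6 of the 7 genes were read, and *Ttr*, an epithelium gene, was left out. Capitals mark CATGTG or its reverse CACATG, the core bound by MITF, the master regulator of pigment cells, and TAATCC or its reverse GGATTA, the core bound by OTX2 and CRX. The windows are chr4:80833963-80834212 (plus strand), chr7:87493513-87493762 (minus), chr14:118052247-118052496 (minus), chr3:159598931-159599180 (plus) and chr14:37049015-37049264 (minus).
Tyrp1: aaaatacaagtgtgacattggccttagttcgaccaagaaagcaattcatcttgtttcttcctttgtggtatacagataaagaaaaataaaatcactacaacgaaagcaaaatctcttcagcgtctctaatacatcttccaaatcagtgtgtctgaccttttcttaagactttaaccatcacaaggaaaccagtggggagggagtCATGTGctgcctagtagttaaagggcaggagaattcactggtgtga
Tyr: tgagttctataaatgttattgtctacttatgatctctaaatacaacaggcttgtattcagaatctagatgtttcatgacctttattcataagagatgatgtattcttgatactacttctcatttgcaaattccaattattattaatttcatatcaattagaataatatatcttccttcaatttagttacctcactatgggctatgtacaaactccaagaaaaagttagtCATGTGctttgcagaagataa
Dct: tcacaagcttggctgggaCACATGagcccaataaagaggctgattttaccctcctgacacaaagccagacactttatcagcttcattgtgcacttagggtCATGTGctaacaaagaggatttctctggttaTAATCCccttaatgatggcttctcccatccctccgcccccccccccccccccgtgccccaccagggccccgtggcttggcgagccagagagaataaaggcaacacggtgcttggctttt
Rpe65: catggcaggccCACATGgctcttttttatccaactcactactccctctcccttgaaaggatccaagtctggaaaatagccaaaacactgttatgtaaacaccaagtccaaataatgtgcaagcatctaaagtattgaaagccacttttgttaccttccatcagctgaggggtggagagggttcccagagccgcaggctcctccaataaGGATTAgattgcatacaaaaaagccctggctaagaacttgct
Rgr: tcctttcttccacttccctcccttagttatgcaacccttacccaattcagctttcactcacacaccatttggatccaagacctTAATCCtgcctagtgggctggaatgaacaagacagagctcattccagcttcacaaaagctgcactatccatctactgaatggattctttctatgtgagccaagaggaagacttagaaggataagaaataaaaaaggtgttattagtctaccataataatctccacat

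The 3 pigment genes each held CATGTG or CACATG, at 46 bases before the start in *Tyrp1*, at 21 in *Tyr*, and at 232 and 150 in *Dct*. *Rpe65* held it too, at 239 bases, and *Rgr* did not. Of all 32851 promoter windows of this length, 12.3% held it. TAATCC or GGATTA lay 42 bases before the start in *Rpe65*, 167 in *Rgr* and 119 in *Dct*, and 6.25% of all windows held it. The window of *Lrat* held neither. No 2 matches overlapped. A match describes the letters only.

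Values are CPM, the read counts of genes scaled to a common library total. Reads counted on genes were estimated at 13.9 to 26.2 M per library, with a median of 19.5, from the smallest step between values. The lowest levels rested on few reads, an estimated 18 for *Rpe65* and 11 for *Lrat* in WT P10 replicate B. Some libraries stood apart. *Cryaa*, a lens crystallin, was at 500 CPM or more in 5 of them: *E168d2/+* P10 C (1562), *R90W/+* P10 C (604), *E168d2neo/+* P21 C (5304), *R90W/+* P21 A (5772) and *R90W/+* P21 C (10303). *E168d2/d2* P10 A had more *Hbb-b1*, a globin, and more *Glul*, a Müller glia enzyme, than the others of its group. *Crx* itself was transcribed in all groups, and its level does not check the labels of point or frame-shift alleles.

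At P10 all 7 genes were at their lowest mean in WT. The share of all genes for which this held was not counted. *Rpe65* was at 4.07, 1.29 and 2.04 CPM in WT replicates A, B and C. It was at 17.2, 5.63 and 8.97 in *E168d2/d2* and at 10.4, 7.51 and 11.3 in *E168d2neo/+*. No library of these 2 mutants reached down to WT. *Rpe65* was at 6.26, 12.7 and 4.43 CPM in *E168d2/+*, at 6.48, 5.65 and 4.49 in *R90W/+*, and at 5.48, 3.61 and 5.15 in *R90W/W*, the only P10 mutant whose range met that of WT.

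*Rgr* was at 14.4, 6.76 and 7.65 CPM in WT. In *E168d2neo/+* it was at 30.7, 30.9 and 32.1, in *E168d2/d2* at 41.1, 24.5 and 35.8, and in *E168d2/+* at 18.6, 35.3 and 16.2. In *R90W/W* it was at 18.3, 18.1 and 18.7 and in *R90W/+* at 23.9, 15.5 and 14.998. All mutant libraries lay above all WT libraries. *Ttr* was at 50.1, 27.3 and 36.0 CPM in WT, against 121, 74.0 and 114 in *E168d2/d2* and 82.7, 102 and 114 in *E168d2neo/+*. Its widest spread was in *E168d2/+*, at 79.2, 148 and 44.7, where replicate C lay within the WT range. In *R90W/W* and *R90W/+*, *Ttr* spanned 61.6 to 76.5 and 50.7 to 70.3 CPM, above every WT library.

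Among pigment genes, *Dct* was at 34.6, 20.9 and 26.6 CPM in WT. It was at 69.3, 49.4 and 68.8 in *E168d2/d2*, at 60.1, 73.4 and 65.9 in *E168d2neo/+*, and at 51.6, 80.8 and 38.8 in *E168d2/+*. It was at 48.5, 48.8 and 50.1 in *R90W/W* and 55.9, 37.0 and 43.0 in *R90W/+*. No mutant library overlapped WT. *Tyrp1* was at 12.8, 8.41 and 9.46 CPM in WT and at 29.3, 19.6 and 26.9 in *E168d2/d2*. *R90W/+*, at 19.1, 12.7 and 15.4, met the WT range for *Tyrp1*. *Tyr* was the flattest, at 5.89, 4.60 and 5.14 CPM in WT and at 11.6, 8.15 and 10.7 in *E168d2/d2*. *Lrat* was at 1.69, 0.791 and 1.58 CPM in WT and at 2.29 to 9.20 over the 15 mutant libraries of P10, without overlap.

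**Figure D1:**
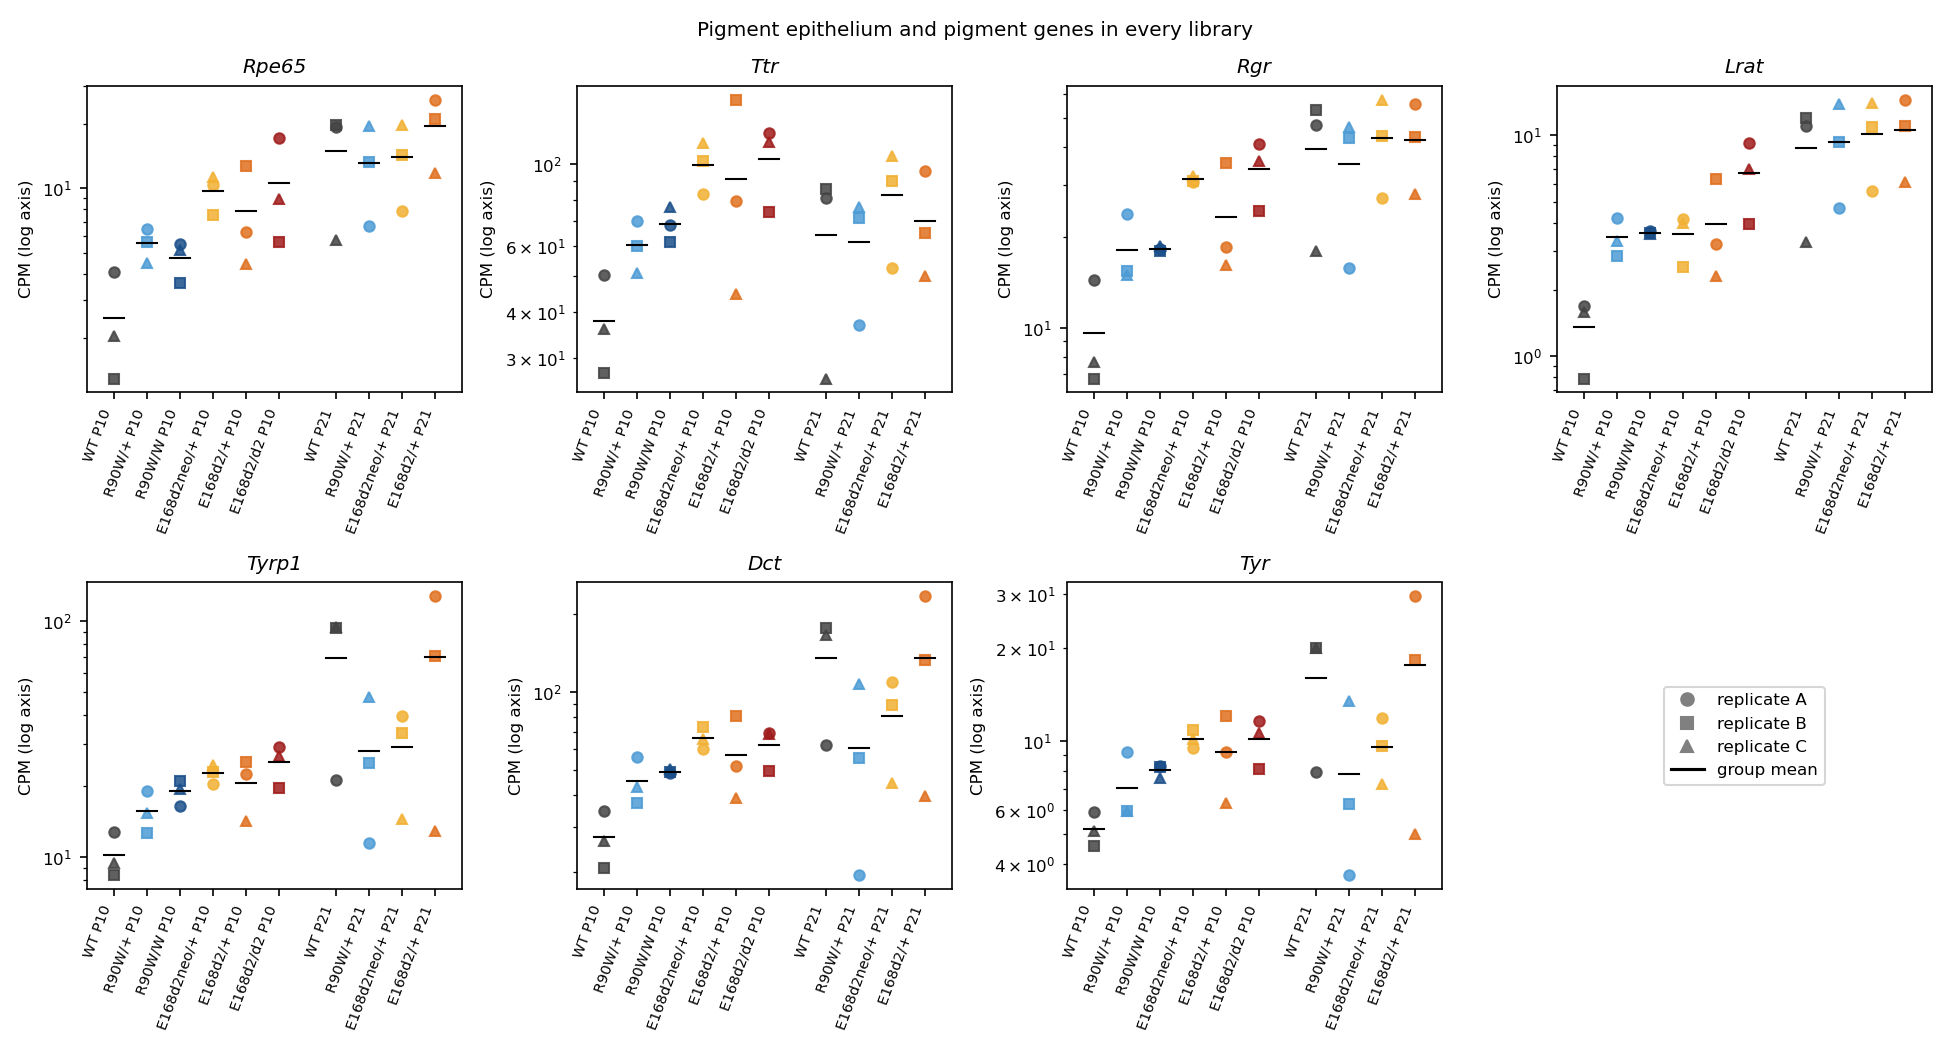
CPM of 7 genes in all 30 libraries, 1 panel per gene on a log axis, with groups along the horizontal axis, replicates A, B and C as circles, squares and triangles, and the group mean as a bar. WT P10 has the lowest mean in every panel, and the libraries of a P21 group lie up to 9.76-fold apart, in *Tyrp1* of *E168d2/+*.

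Each mutant was compared with WT of its age by limma on log2(CPM + 0.1), and calls needed both an FDR within 0.05 and a change of at least 2-fold. A gene was tested where all libraries of either group reached 5 CPM. In WT P10, *Rpe65* lay under it in every library and *Tyr* in replicate B. At P10 both were therefore tested only through the mutant, where they were higher. Their calls and the counts of genes tested depend on that. The CPM of all 7 genes did not overlap with WT in *E168d2/d2* and *E168d2neo/+*, and those of 6 did not in each of the other 3 mutants, with the mutant higher each time. Of all genes of the table, 41.2% lay above WT without overlap in *E168d2/d2*, 21.6% in *E168d2neo/+*, 35.6% in *R90W/W*, 25% in *E168d2/+* and 14.8% in *R90W/+*. In *E168d2/d2* at P10, 5 of the 6 genes tested rose: *Rpe65*, *Ttr*, *Rgr*, *Tyrp1* and *Dct*. Of all genes tested there, 5.51% were called, in either direction. *Rpe65* rose by 2.06 ± 0.41 (log2, SE; limma FDR = 0.0014), *Rgr* by 1.86 ± 0.25 and *Ttr* by 1.46 ± 0.21, against 1.30 ± 0.17 for *Tyrp1* and 1.20 ± 0.17 for *Dct*. *Tyr*, at 0.94 ± 0.15, missed the 2-fold limit. Without *E168d2/d2* replicate B or without WT replicate A, *Tyr* passed it, at 1.09 and 1.03.

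*E168d2neo/+* gave the same 5 calls, where 1.06% of all genes were called. *Rpe65* rose by 2.07 ± 0.32 (limma FDR = 0.0013), *Rgr* by 1.77 ± 0.22, *Ttr* by 1.42 ± 0.18, *Dct* by 1.30 ± 0.15 and *Tyrp1* by 1.16 ± 0.14. *Tyr* was at 0.96 ± 0.12, just under the limit, and passed it without *E168d2neo/+* replicate A or WT replicate A. In *E168d2/+*, 3 of 5 genes tested rose, *Rgr* by 1.27 ± 0.31 (limma FDR = 0.017), *Ttr* by 1.14 ± 0.36 (limma FDR = 0.046) and *Dct* by 1.02 ± 0.24, and 1.59% of all genes were called. All 3 calls were lost without replicate B of *E168d2/+*, B of WT or C of WT, while 6 genes were called without replicate C of *E168d2/+*, the library with much *Cryaa*. *Ttr* alone was lost without WT replicate A or *E168d2/+* replicate A.

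In *R90W/W*, 1 of 5 genes tested rose, *Rgr* by 1.01 ± 0.18 (limma FDR = 0.00012), and 2.15% of all genes were called. *Ttr* and *Tyrp1*, both at 0.90, *Dct* at 0.87 and *Tyr* at 0.63 lay under 2-fold. The count ran from 0 to 4 on leaving out single libraries: 4 without WT replicate A, 2 without *R90W/W* replicate A or B, and 0 without *R90W/W* replicate C or WT replicate B or C. In *R90W/+*, 0 of 5 were called by limma, where 0.25% of all genes were. Of these 5, 4 passed the limma FDR and missed the 2-fold limit, against 11.7% of all genes at that FDR, and all 5 had an unadjusted limma p under 0.05, against 26.2% of all genes. *Rgr* was at 0.96 ± 0.23 and rose past the limit without WT replicate A (1.29), *R90W/+* replicate B (1.06) or replicate C (1.08).

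*Rpe65* and *Lrat* fell below the test minimum in several P10 comparisons. With no minimum, *Lrat* rose in all 5, by 2.22 ± 0.32 in *E168d2/d2* and by 1.34 to 1.42 in the others, and *Rpe65* by 1.63 in *E168d2/+*, 1.27 in *R90W/+* and 1.04 in *R90W/W*. With these values of *Rpe65* included, the changes of epithelium genes at P10 had a median of 1.27 in log2 (0.70 to 2.07, 15 values) and those of pigment genes 0.94 (0.40 to 1.30, 15 values), a difference that was not tested. The median change of all genes was between 0.0009 and 0.097 in these comparisons. All 5 share the same 3 WT libraries, so they are not independent of each other. Between *E168d2/+* and *E168d2neo/+*, 0 members were called by limma on the FDR alone, with 0.852% of all genes called at P10 and 2.42% at P21. No member had an unadjusted p under 0.05 in either, against 19.6% and 24.7% of all genes. Leaving out single libraries moved the calls of all genes from 102 to between 16 and 245 at P10, the highest without *E168d2/+* replicate C, and from 288 to between 8 and 1725 at P21, the highest without *E168d2/+* replicate B. *Rgr* passed at P10 without replicate B of *E168d2/+* (a difference of -0.84).

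**Figure D2:**
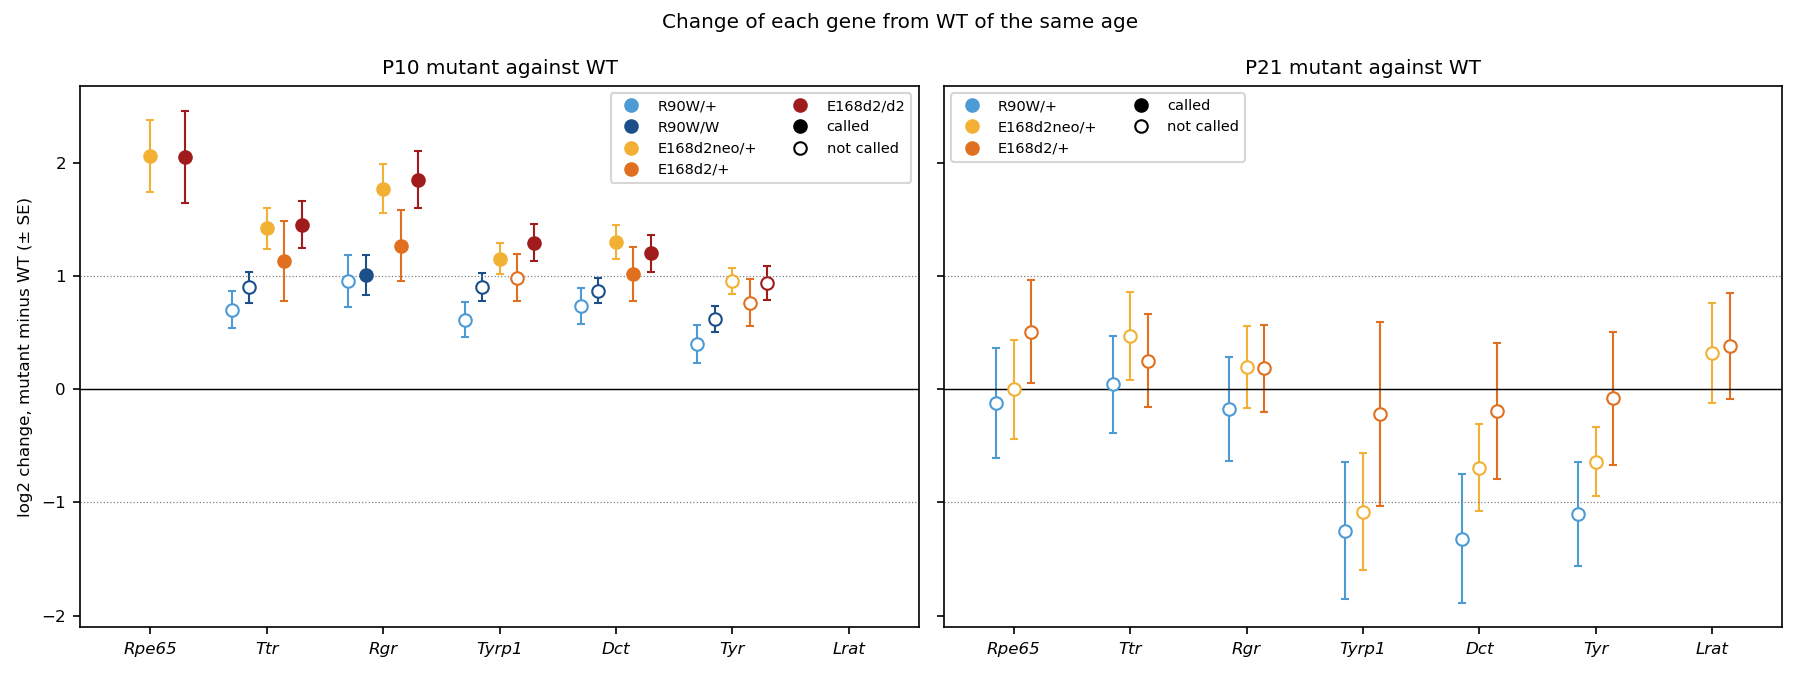
Change of each gene from WT of the same age in log2 ± SE from limma, at P10 on the left and P21 on the right, with filled points for called changes and dotted lines at 2-fold; genes below the test minimum have no point. All P10 points lie above 0, and no P21 point is filled.

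Some other transcripts moved with these at P10, and others did not. In *E168d2/d2*, *Mfrp*, a membrane protein of the epithelium, rose by 1.26 and *Col8a2*, a collagen, by 1.56, while *Krt18*, a keratin, fell by 1.30. These were 2 higher and 1 lower of 10 other epithelium genes tested, whose median change was 0.73, against 0.10 for all genes. That median was 0.61 in *R90W/W* (0 called of 10) and 0.42 in *E168d2/+* (1 higher and 1 lower of 9). In *E168d2neo/+* it was 0.29 (2 higher of 10) and in *R90W/+* 0.25 (0 called of 8). *Pmel*, which builds the fibrils of the melanosome, rose by 1.29 in *E168d2/d2* and by 1.41 in *E168d2neo/+*, and *Gpnmb*, a related melanosome protein, by 1.03 in *E168d2neo/+*. The melanosome list had a median change of 0.26 in *E168d2/d2*, 0.33 in *E168d2neo/+*, 0.26 in *E168d2/+* and 0.16 in *R90W/+*. In *R90W/W* it was 0.01, against 0.05 for all genes. *Mitf* is named in both the epithelium and the melanosome list. *Trpm1* of the melanosome list was at 333 to 504 CPM over the P10 libraries, against 17.6 to 73.2 for *Pmel*, and its cells of origin were not tested. Of this list, 1 gene of 8 tested rose and 1 fell in *E168d2/d2*, and 2 rose and 1 fell of 7 in *E168d2neo/+*. The 1 that fell was *Mc1r*, the melanocortin receptor of melanocytes, which was lower in all 8 comparisons with WT. *Mc1r* was at 8.15 to 9.46 CPM in the WT libraries of both ages and at 0.459 to 4.32 in the mutant libraries. Over the WT P21 libraries it spanned 9.09 to 9.46 while *Tyrp1* spanned 21.2 to 94.0, so it did not follow the pigment genes there. What the fall of *Mc1r* reflects was not tested. This gene also stands in the list of 4 melanocyte markers, of which 3 were tested: 0 rose and *Mc1r* alone fell in each comparison with WT. *Sox10*, which defines melanocytes, had no row.

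The retinoid cycle has a step in the photoreceptors as well. Of 7 genes of that part, *Rdh12*, *Rdh8*, *Abca4* and *Rbp3* fell in *E168d2/d2* and 0 rose, while of 8 tested epithelium-side genes 2 rose, both members (*Rpe65* and *Rgr*), and 0 fell. *Rdh10* and *Rdh11* stand in both of these lists, and *Rlbp1* of the epithelium side is also among the Müller glia markers. Müller glia transcripts also rose in *E168d2/d2* (*Glul*, *Aqp4* and *Apoe*, 3 of 5) and *Aqp4* in *R90W/W*, *E168d2/+* and *R90W/+*. The sum of the 5 glial markers was 1287 to 1384 CPM in WT P10 and 1496 to 3079 in the 15 mutant libraries. Of fibroblast markers of choroid and sclera, *Ogn* rose in *E168d2/d2* and *E168d2/+* and *Col1a1* in *E168d2neo/+*, each 1 of 3 tested. In *R90W/W* and *R90W/+* 0 of 2 were called. The sum of 4 was 28.0 to 33.4 CPM in WT P10 and 35.9 to 50.2 in the mutants. Of vessel markers, 0 of 5 tested were called in each P10 mutant, with median changes of 0.03 to 0.22. Their sum was 390 to 412 CPM in WT P10. It lay above that in *E168d2/d2* and *E168d2/+* and overlapped it in *R90W/W*, *E168d2neo/+* and *R90W/+*. Of 2 markers of the ciliary body and iris, which are also pigmented, *Otx1* rose in *E168d2/d2* by 1.17 and in *R90W/W* by 1.05, and their sum was 143 CPM at its lowest and 163 at its median in WT P10 and 171 to 341 in the mutants, without overlap. The part of these in the change of the pigment genes was not tested. In whole tissue, more adhering cells and more RNA per cell cannot be told apart.

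At P21 the libraries of each mutant overlapped with those of WT in every member. The share of all genes that did so was not counted. No member was called by limma in any of the 3 mutants, where 1.58% of all genes were called in *E168d2/+*, 0.672% in *E168d2neo/+* and 0.287% in *R90W/+*. The unadjusted p was under 0.05 for *Dct* and *Tyr* in *R90W/+*, where it was for 16.1% of all genes, and for no member in *E168d2/+* and *E168d2neo/+*, where it was for 35.3% and 28% of all genes. *Tyr* was at 3.70 CPM in replicate A of *R90W/+*, under the test minimum. It was tested there only through WT, the higher group, and its results in that comparison depend on that. *Tyrp1*, *Dct* and *Tyr* were at -1.25 ± 0.61, -1.32 ± 0.57 and -1.10 ± 0.46 in *R90W/+*, and at -1.08 ± 0.52, -0.69 ± 0.39 and -0.64 ± 0.31 in *E168d2neo/+*. *Rpe65*, *Ttr* and *Rgr* were between -0.17 and 0.48 in both. In *E168d2/+* the estimates were -0.22 ± 0.81, -0.19 ± 0.60 and -0.08 ± 0.59 for *Tyrp1*, *Dct* and *Tyr* and 0.51 ± 0.46 for *Rpe65*. The classes were not compared by a test. Without WT P21 replicate A, all 3 pigment genes fell in *E168d2neo/+*, *Tyrp1* by 1.79 (limma FDR = 0.0050), and without replicate C of *R90W/+* *Tyr* fell there by 1.59. The replicate letters share only a label, and in *R90W/+* against WT same-letter deviations correlated at -0.03 to 0.13. With the letter as a block, all 3 pigment genes fell in *R90W/+* (limma FDR = 0.0090, 0.0090 and 0.021). *Krt18* fell in all 3 mutants, by 1.81 in *E168d2/+*, 1.77 in *E168d2neo/+* and 1.10 in *R90W/+*.

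The libraries behind those means did not behave as a group. In WT P21, *Tyrp1* was at 21.2, 92.8 and 94.0 CPM in replicates A, B and C, and *Dct* at 62.1, 177 and 166. *Rpe65* in the same libraries was at 19.4, 19.8 and 5.76 CPM, and *Ttr* at 80.8, 85.7 and 26.4. Replicate A was high in the epithelium genes and low in the pigment genes, replicate C the reverse, and replicate B high in both. In *E168d2neo/+* P21, *Tyrp1* was at 39.6, 33.5 and 14.6 CPM and *Rpe65* at 7.81, 14.4 and 19.7, in opposite order. In *E168d2/+* P21, *Tyrp1* was at 127, 71.1 and 12.98 and *Rpe65* at 25.9, 21.1 and 11.8, in the same order. In *R90W/+* P21, *Tyrp1* was at 11.4, 25.1 and 47.7 and *Rpe65* at 6.67, 13.2 and 19.5, also in the same order.

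*Dct* in these 3 mutants was at 109, 88.9 and 44.5 CPM (*E168d2neo/+*), 234, 133 and 39.4 (*E168d2/+*) and 19.6, 55.4 and 107 (*R90W/+*), the order of *Tyrp1* each time. *Tyr*, at 3.70 CPM in *R90W/+* A and 29.4 in *E168d2/+* A, had its extremes where *Dct* had them. *Lrat* went with *Rpe65*: it was at 10.9, 11.9 and 3.29 CPM in WT P21 and at 5.60, 10.9 and 13.9 in *E168d2neo/+*.

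Summed over *Tyrp1*, *Dct* and *Tyr*, the pigment level ran from 33.9 to 118 CPM over the 18 libraries of P10 and from 34.7 to 390.1 over the 12 of P21. The sum of *Rpe65*, *Ttr* and *Rgr* ran from 35.4 to 196 and from 50.2 to 182. The ratio of pigment to epithelium sum depends on the genes' lengths and is used only between libraries. It stayed between 0.602 and 0.957 in every P10 library. At P21 it was 0.618, 1.83 and 5.57 in WT A, B and C, 0.586 to 1.18 in *R90W/+*, 0.365 to 1.84 in *E168d2neo/+* and 0.642 to 2.20 in *E168d2/+*. The highest ratio of an age was 1.59 times the lowest at P10 and 15.3 times at P21. *Ttr* was the largest part of the epithelium sum in every library, so the ratio rests mostly on it. Centred over libraries, the log2 ratio of the P10 groups ran from -0.419 to -0.039, and without *Ttr* from -0.283 to 0.440. It was lowest in *E168d2/d2* and highest in WT both times.

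**Figure D3:**
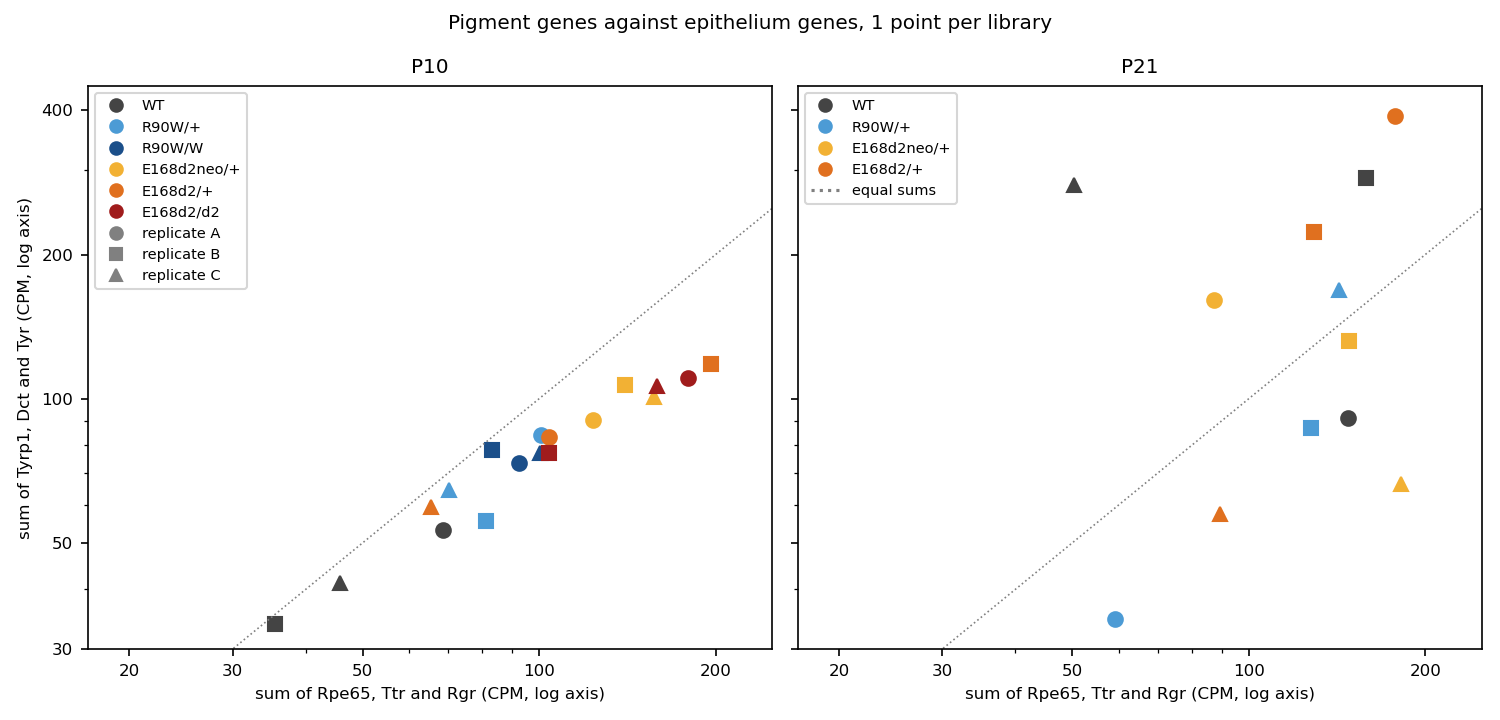
Sum of the 3 pigment genes against the sum of the 3 epithelium genes in CPM, both on log axes, with 1 point per library, colour for genotype, shape for replicate letter and a dotted line of equal sums. P10 libraries lie along a band just below the line, whereas P21 libraries scatter on both sides, with WT C farthest above (5.57) and *E168d2neo/+* C farthest below (0.365).

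To describe this within groups, the group mean was taken from each gene's log2 value and the deviations were correlated over libraries, with p from 100000 permutations within groups and adjusted over 21 pairs. At P10, over 18 libraries, pairs of an epithelium and a pigment gene had r of 0.71 to 0.93, and all 9 had an adjusted permutation p of 0.05 or less. The weakest was *Rpe65* with *Tyrp1* (Pearson r = 0.71, permutation p = 0.023, adjusted 0.023; Spearman ρ = 0.67, permutation p = 0.022, adjusted 0.022). Without the 2 libraries farthest from the median of *Rpe65*, r was 0.63. The strongest was *Rgr* with *Dct* (Pearson r = 0.93, permutation p = 0.0017, adjusted 0.0033; Spearman ρ = 0.92, permutation p = 0.0014, adjusted 0.0038), and without 2 libraries 0.89.

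At P21, over 12 libraries, the same 9 pairs had r of 0.13 to 0.36 and none had an adjusted permutation p of 0.05 or less, nor an unadjusted one. For *Rpe65* with *Tyrp1*, Pearson r was 0.19 (permutation p = 0.61, adjusted 0.64) and Spearman ρ 0.22 (permutation p = 0.56, adjusted 0.61), and r was 0.27 without 2 libraries. Within a class the genes held together. *Rpe65* with *Rgr* had Pearson r = 0.98 (permutation p = 0.00076, adjusted 0.0023) and Spearman ρ = 0.92 (permutation p = 0.0023, adjusted 0.0058), and *Tyrp1* with *Tyr* had Pearson r = 0.98 (permutation p = 0.0014, adjusted 0.0034) and Spearman ρ = 0.99 (permutation p = 0.0014, adjusted 0.0043). Without 2 libraries these were 0.97 and 0.96. *Lrat* fell with the epithelium class, at r of 0.976 to 0.999 with its 3 genes and 0.22 to 0.33 with the pigment genes. The difference between the ages was not tested, and libraries of an age share the scale of CPM, which links genes of a library. P21 has fewer libraries and groups. Shuffling within them allows few distinct orders, and several pairs shared the lowest permutation p of 0.00076. That p is about the smallest such shuffling can give, so it does not rank the pairs.

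**Figure D4:**
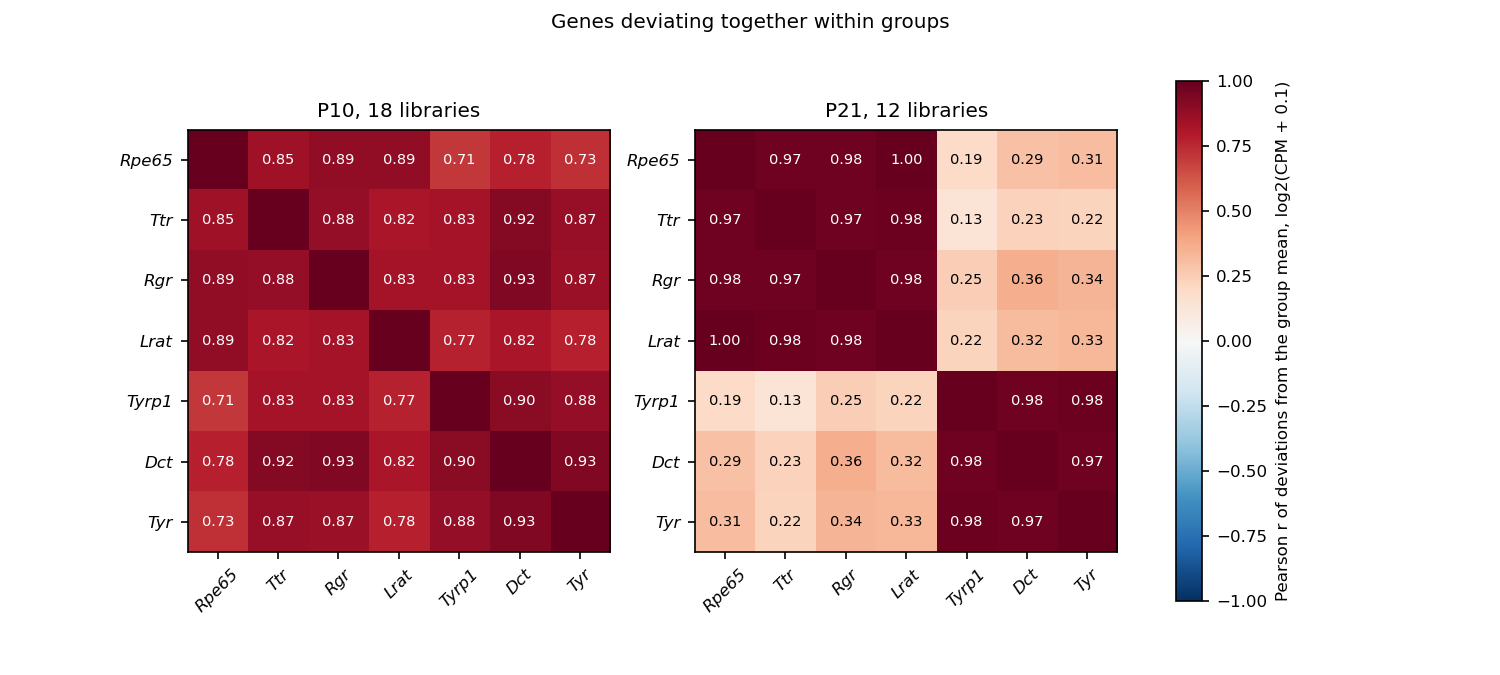
Pearson r between the deviations of 2 genes from their group means, in log2(CPM + 0.1), at P10 (18 libraries) and P21 (12 libraries), from -1 in blue to 1 in red. At P10 all pairs are at 0.71 or more, and at P21 *Rpe65*, *Ttr*, *Rgr* and *Lrat* form a block apart from *Tyrp1*, *Dct* and *Tyr*, with r of 0.13 to 0.36 between the blocks.

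Over all 30 libraries, the genes outside the list whose deviations were most like those of *Rpe65* were *Sema3c* (r = 0.94), a semaphorin, *Car12* (0.89), a carbonic anhydrase, *Col8a1* (0.89), a collagen, *Enpp2* (0.87), which makes lysophosphatidic acid, and *Slc16a8* (0.87), a lactate transporter of the epithelium. Those most like *Tyrp1* were *Gpnmb* (0.98), *Pmel* (0.98), *Myh11* (0.95) and *Tagln* (0.91), both of smooth muscle, and *Mlph* (0.90), which ties melanosomes to their motor. All 12572 other genes were ranked. Among them *Tyrp1* came 1686th for *Rpe65* at r = 0.27, while *Lrat*, *Rgr* and *Ttr* came 1st, 3rd and 4th. *Gpnmb* spanned 6.01 to 17.6 CPM at P10 and 11.01 to 165 at P21, and *Myh11* 1.01 to 4.36 and 2.20 to 57.2. In WT P21, *Gpnmb* was at 22.1, 97.1 and 122 CPM in A, B and C and *Pmel* at 33.0, 132 and 149, as *Tyrp1* was, whereas *Slc16a8* was at 10.9, 10.5 and 4.8 CPM, as *Rpe65* was. *Col3a1*, of fibroblasts, was at 4.5, 10.8 and 12.9 CPM there. The sum of 5 blood markers was 55.2 to 274 CPM in WT P21, and lens markers rose in *R90W/+* at P21 (*Cryaa* by 8.18 and *Crybb1* by 7.46). Their part in these patterns was not tested.

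Between P10 and P21, 5 of 6 genes tested rose in WT: *Rpe65* by 2.50 ± 0.42, *Tyrp1* by 2.49 ± 0.40, *Dct* by 2.19 ± 0.29, *Rgr* by 1.97 ± 0.33 and *Tyr* by 1.49 ± 0.26 (limma, FDR of 8.55e-05, 6.32e-05, 1.01e-05, 8.65e-05 and 0.000132). Of all genes, 8.83% were called, and the median change of all genes was -0.17. *Ttr* was at 0.63 ± 0.33 and rose by 1.18 without WT P21 replicate C. Only the P21 libraries brought *Rpe65* and *Tyr* over the test minimum in WT, and *Rpe65* in *R90W/+* and *E168d2/+*. The same held for *Lrat* in *E168d2neo/+* and *E168d2/+*, so these genes were tested through their higher group. *Lrat* was below the test minimum in WT and *R90W/+*, and with no minimum it rose by 2.46 in WT (limma FDR = 6.36e-05) and by 1.29 in *R90W/+* (limma FDR = 0.0064). In *R90W/+*, 1 of the 6 genes tested rose, *Rpe65* by 1.12 ± 0.32 (limma FDR = 0.011), with 6.54% of all genes called. That call was lost without P10 replicate C or P21 replicate C, the count was 2 without P10 replicate A, and 4 genes were called without P21 replicate A, a library with much *Cryaa* in which every member was at its lowest of the group. Replicate C, with more *Cryaa* still, held every member's highest. In *E168d2neo/+*, 1 of 7 rose, *Lrat* by 1.42 ± 0.29 (limma FDR = 0.0011), with 8.45% called. In *E168d2/+*, *Rpe65* and *Lrat* rose by 1.38 ± 0.36 and 1.43 ± 0.36 (limma, FDR of 0.0091 and 0.0081), with 6.31% called, and 6 genes were called without P21 replicate C and 3 without P10 replicate B.

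Whether a mutant's distance from WT differed between the ages was tested as an interaction, called on the FDR alone. In *E168d2neo/+* it was lower at P21 than at P10 for *Dct*, by -1.99 ± 0.48 (limma FDR = 0.022), *Tyr*, by -1.60 ± 0.37 (limma FDR = 0.018), and *Tyrp1*, by -2.24 ± 0.62 (limma FDR = 0.044), where 6.11% of all genes were called. *Rpe65* and *Rgr* had estimates of -2.07 ± 0.62 and -1.58 ± 0.49 and did not pass (limma FDR = 0.063 and 0.069). No member was called in *R90W/+*, where 1.7% of all genes were, or in *E168d2/+*, where 3.58% were. The estimates there ran from -2.05 to -0.66 and from -1.21 to -0.84, and the unadjusted p was under 0.05 for *Tyrp1*, *Dct* and *Tyr* in *R90W/+* and for none in *E168d2/+*, against 16% and 18.3% of all genes. In *E168d2neo/+*, a fit of all groups together lost all 3 calls (limma FDR of 0.12 to 0.16), a fit without a trend lost *Dct* and *Tyrp1*, and the replicate letter as a block lost *Tyrp1* (limma FDR = 0.067). The calls also moved with single libraries: 0 were left without WT P10 replicate B, 1 without WT P21 replicate B, and 4 without *E168d2neo/+* P21 replicate C, the library with much *Cryaa*, where *Rpe65* and *Rgr* passed and *Tyrp1* did not. In *R90W/+*, *Tyrp1* was called without WT P21 replicate A, and *Dct* and *Tyr* without P21 replicate C.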

How the data were processed

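Whole-retina RNA was sequenced in 30 libraries. The sources name both poly(A) selection and removal of ribosomal RNA, and strand is not given in the sources used here. Per the submitters' processing notes, TopHat2 2.0.5 placed the authors' reads on mm9, HTSeq 0.6.1p1 assigned them to UCSC gene models, and edgeR 3.6.8 gave the comparisons. The authors deposited CPM for 12573 genes. The deposited table also holds log2 fold changes, log2 mean levels, p-values and FDR of the authors' own edgeR comparisons, which were not used.

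Groups follow the sample titles. The members and lists were chosen with earlier results of these data known. Log2(CPM + 0.1) was tested in R 4.3.3 with limma 3.58.1 (eBayes with trend, two-sided), 1 fit per comparison, with Benjamini-Hochberg adjustment over all genes at 5 CPM or more in all libraries of a group. Replicates are pools of different mice, and changes on this scale are understated for low genes. The named genes are all members with a row, genes of fixed lists called against WT, and the 5 genes most like *Rpe65* and *Tyrp1*. Genes with values given to check a tissue are from the same lists. No 2 libraries held identical values. The steps were tested on simulated data. Some results are not reported here. Python 3.11.15 with pandas 2.3.3, scipy 1.17.1 and matplotlib 3.10.9 did the rest. The alternatives were pseudocounts of 1 and 0.01 CPM, a minimum of 1 CPM or none, median scaling, no trend, all groups in 1 fit, the replicate letter as a block, sums without *Ttr*, correlations within an age and each library left out. Leaving out libraries with 500 CPM or more of *Cryaa* was chosen after seeing the data.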

Additional observations from a re-analysis of the deposited data

Results flagged for a closer look

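For 3 genes the distance of *E168d2neo/+* from WT differed between P21 and P10 by a test of the difference itself (limma, interaction of genotype and age). The difference, P21 minus P10 in log2, was -2.24 for *Tyrp1* (FDR = 0.044), -1.99 for *Dct* (FDR = 0.022) and -1.60 for *Tyr* (FDR = 0.018). At P10 the 3 genes were higher in *E168d2neo/+* than in WT without overlap of the libraries, and at P21 the libraries of both groups overlapped. In WT P21, replicates B and C were high in all 3 genes and replicate A was low. In a fit of all groups together the FDR was 0.12 for *Dct*, 0.13 for *Tyrp1* and 0.16 for *Tyr* (limma), so none of the 3 passed. Without a trend *Dct* (0.061) and *Tyrp1* (0.098) did not pass (limma FDR), nor did *Tyrp1* with the replicate letter as a block (0.067). Without WT P10 replicate B, 0 members were called. The epithelium genes *Rpe65* and *Rgr* had estimates of like size, -2.07 and -1.58, and did not pass (limma FDR = 0.063 and 0.069). The classes were not compared by a test. Groups of 3 libraries were too small to look for single libraries apart by a rule.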

How the results depend on the processing

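Of 1680 values of single genes under the alternatives, 0 changed direction in a called value, 1588 kept their side of the limits, 43 lost a call and 49 gained one. The count of called genes at P10 moved in *R90W/W* from 1 to 0 (1 CPM added, median scaling) or 3 (minimum of 1 CPM or none), in *E168d2/+* from 3 to 5 (minimum of 1 CPM or none), 1 (median scaling) or 6 (without libraries of much *Cryaa*), and in *R90W/+* from 0 to 2 (minimum of 1 CPM or none, and without such libraries). From P10 to P21 in *R90W/+* it went from 1 to 2 (minimum of 1 CPM or none) or 3 (without such libraries). For the interaction in *E168d2neo/+* it went from 3 to 1 without a trend and to 0 in a fit of all groups. Leaving out single libraries gave 0 to 4 in *R90W/W*, 0 to 6 in *E168d2/+* and 0 to 2 in *R90W/+* at P10, 0 to 3 in *E168d2neo/+* and 0 to 1 in *R90W/+* at P21, 0 to 4 in *R90W/+* and 2 to 6 in *E168d2/+* between ages, 0 to 1 for *E168d2/+* against *E168d2neo/+* at P10, and 0 to 4 and 0 to 2 for the interactions in *E168d2neo/+* and *R90W/+*. The cause of these was not tested.

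The replicate letters share only a label: in 14 comparisons, same-letter deviations correlated at -0.46 to 0.41, and all 3 letters were above 0.1 in 1 comparison. With the replicate letter as a block, the count in *R90W/+* at P21 went from 0 to 3, and of 106 gene values 4 gained and 2 lost a call. The counts of all genes called moved by over 1.5 times in *E168d2/+* against *E168d2neo/+* under the block, from 102 to 602 at P10 and from 288 to 53 at P21. A fit of all groups gave 1193 and 1096 there, 16 in place of 34 in *R90W/+* at P21, and 110, 329 and 786 in place of 209, 757 and 443 for the interactions in *R90W/+*, *E168d2neo/+* and *E168d2/+*. No trend gave 110 for *E168d2/+* against *E168d2neo/+* at P21 and 121 and 288 for the interactions in *R90W/+* and *E168d2/+*, and median scaling 174. Without libraries of much *Cryaa* these were 245 and 40 for *E168d2/+* against *E168d2neo/+*, and 65 and 846 for those interactions.

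Correlations passed at P10 alone but not over all libraries for *Rpe65* with *Tyrp1* (0.709), *Dct* (0.781) and *Tyr* (0.730), *Ttr* with *Tyrp1* (0.833), *Dct* (0.920) and *Tyr* (0.873), *Rgr* with *Tyrp1* (0.835), *Dct* (0.928) and *Tyr* (0.865), and *Lrat* with *Tyrp1* (0.772), *Dct* (0.819) and *Tyr* (0.778). Over all libraries these lay between 0.247 and 0.462. The log2 ratio of pigment to epithelium sum, centred over libraries, moved at P10 without *Ttr* from -0.039 to 0.440 in WT, -0.156 to 0.072 in *R90W/+*, -0.114 to 0.266 in *R90W/W*, -0.344 to -0.183 in *E168d2neo/+*, -0.245 to 0.064 in *E168d2/+* and -0.419 to -0.283 in *E168d2/d2*. A sum without *Mlana* was not run, since *Mlana* has no row. Low depth limits *Rpe65* and *Lrat* in WT P10, and 3 reads stand for 0.114 to 0.216 CPM, so no member is near a count of 0.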
